A study of Mus musculus with 2 samples.

Results

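The POU factors described here were 8 genes for transcription factors that carry a POU domain: Pou5f1, Pou3f1, Pou3f2, Pou3f3, Pou3f4, Pou2f1, Pou4f1 and Pou6f1. They were chosen by name, as every gene probe of the array whose gene name was one of these symbols, which gave 13 probes of 41174 gene probes on the array. Each gene had 1 or 2 probes, and each of these probes was printed as 1 spot. The samples were day 6 embryoid bodies, floating cell aggregates described in the labels as neural precursors, and day 0 ES cells, both from the mouse embryonic stem cell line R1. Day 0 cells were kept on growth-arrested fibroblast feeders in medium with 15% fetal bovine serum and 1000 U/ml of the cytokine LIF, and no genetic change or drug is named for either day. Each day had 1 one-colour Agilent array, so no difference below has a replicate check or a p-value, and all describe these 2 RNA samples.

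The POU domain joins a POU-specific domain and a homeodomain by a linker, and the pair binds the octamer, a short DNA element, and variants of it. Pou5f1 (Oct4) holds ES cells in the pluripotent state together with Sox2. The class III genes Pou3f1 (Oct6), Pou3f2 (Brn2), Pou3f3 (Brn1) and Pou3f4 (Brn4) act mainly in the nervous system, and Pou3f1 is also expressed in the epiblast. Pou4f1 (Brn3a) marks sensory neurons and some central neurons, Pou2f1 (Oct1) is expressed in nearly all cells, and Pou6f1 is expressed in the brain and elsewhere.

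The probes are DNA oligomers of 60 bases. Shown here are the Pou5f1 and Pou3f2 probes, which carry large differences, and the Pou2f1 and Pou3f4 probes that share letters with the Pou3f2 probe. The upstream Pou3f3 probe, which was within 2-fold, is also shown. The downstream Pou3f3 probe, which was detected on day 6 only, is not printed. Positions are in mm7 (NCBI build 35), the build of the array files, and each probe was designed to the mRNA accession given. The probes for Pou3f2 and Pou2f1 share a run of 15 bases, shown in capitals, within the stretch that encodes the end of the homeodomain. The Pou5f1 probe (NM_013633) lies at chr17:33612047-33612107 on the plus strand. The Pou3f2 probe (NM_008899) lies at chr4:22490541-22490600 on the minus strand, the Pou3f4 probe (NM_008901) at chrX:106142798-106142857 on the plus strand, and the Pou2f1 probe (NM_198934) at chr1:165865699-165865758 on the minus strand. The Pou3f3 probe (NM_008900) lies at chr1:42938630-42938689 on the plus strand. The probes read, 5′ to 3′:
Pou5f1: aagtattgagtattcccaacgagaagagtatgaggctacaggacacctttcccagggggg
Pou3f2: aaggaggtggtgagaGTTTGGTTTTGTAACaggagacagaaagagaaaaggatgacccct
Pou2f1: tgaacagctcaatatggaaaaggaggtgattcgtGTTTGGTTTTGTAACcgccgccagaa
Pou3f4: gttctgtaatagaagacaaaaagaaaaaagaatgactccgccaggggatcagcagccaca
Pou3f3: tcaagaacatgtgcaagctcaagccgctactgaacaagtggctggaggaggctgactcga

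Over the 41 bases where they overlap, the Pou3f2 and Pou2f1 probes were identical at 33 positions (80.5%). The Pou3f2 and Pou3f4 probes were identical at 32 of 40 overlapping positions (80.0%), with no shared run above 6 bases. The next closest pair of member probes from different genes was identical at 53.1% of 32 positions. How well each probe separates transcripts of related POU genes was not tested.

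Pou5f1 had the lowest day 6 to day 0 difference of the POU probes, while Pou3f2 and the downstream Pou3f3 probe were at background on day 0 and bright on day 6. Of the 13 probes, 8 were well above background on both arrays, 2 on day 6 only, and 3 on neither array. A spot that the software did not mark as well above background is called at background here, which gives only a bound on its signal. Of the 10 that could be compared, 2 reached 2-fold in the direction of day 6 (Pou3f2 and 1 of the Pou3f3 probes), and 2 in the direction of day 0 (Pou5f1 and Pou3f1). Over all 28376 probes compared, 17.5% were higher by 2-fold or more and 18.1% lower by as much, so these counts are close to the background and say nothing particular of the POU genes. Of all probes 2-fold apart, 49.2% were higher on day 6, against 60.9% with no scaling between the arrays. At 4-fold, 2 of the 10 POU probes were higher and 1 lower, where 6.53% and 6.64% of all probes were. Counted by gene with the brightest probe, 7 POU genes could be compared, and at 4-fold 1 was higher (Pou3f2) and 1 lower (Pou5f1), where 7.23% of all named genes were higher and 8.28% lower. Intensities below are the software's background-subtracted values in array units, and log2 differences are day 6 minus day 0 after each array's 75th percentile was set equal, with the SD that follows from the software's error model.

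**Figure D1:**
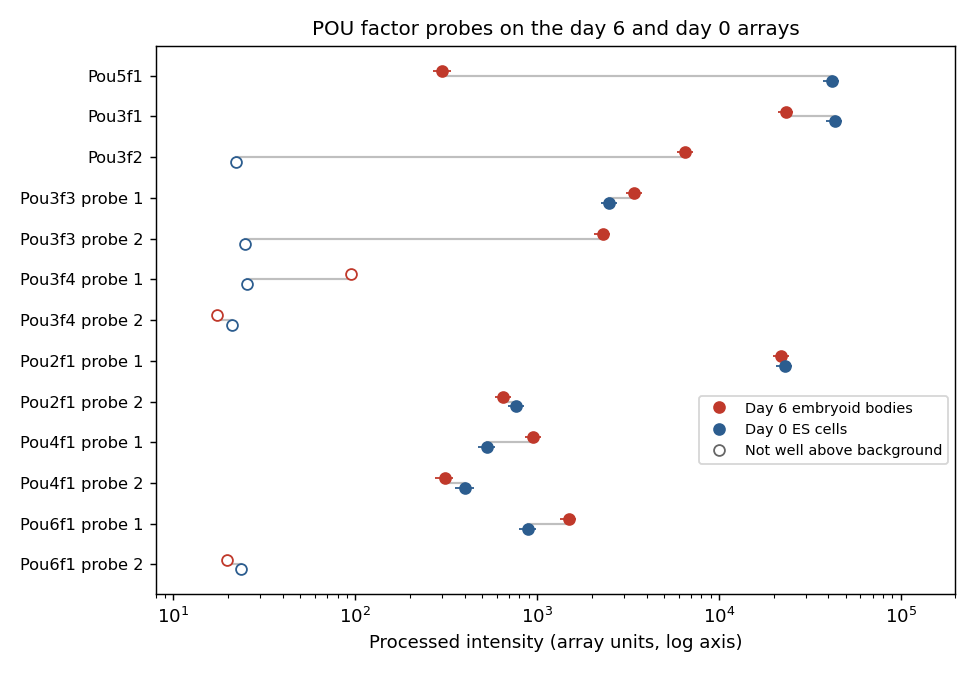
Processed intensity of each POU probe (array units, log axis) on the day 6 embryoid body array (red) and the day 0 ES cell array (blue). Bars are the software's error, drawn for spots well above background, and open points were not well above background. Pou5f1 lies at 302 on day 6 and 41679 on day 0, and Pou3f2 at 6525 on day 6 with an open point on day 0.

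Pou5f1, the pluripotency factor, read 302 ± 34.9 in embryoid bodies, against 41679 ± 4168 in ES cells (intensity with software error). The day 6 spot was dim but was still marked as well above background: its mean intensity before subtraction was 445, against a local background of 67. The log2 difference was -7.33 ± 0.22, which is 161-fold lower on day 6. Among 12344 genes measured on both arrays, 3 had a lower log2 difference than Pou5f1. The nearest differences to it, over these 2 arrays, were those of S100a4 (-7.31 ± 0.28), Pla2g1b (-7.28 ± 0.30) and Tdgf1 (-7.42 ± 0.26), which lay within 0.0921 log2 units of it. S100a4 is listed here as a fibroblast gene, Pla2g1b encodes a secreted phospholipase and Tdgf1 the Nodal co-receptor Cripto.

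Pou3f1, the class III gene that is also expressed in the epiblast, was bright on both days. Its intensity was 23367 ± 2337 on day 6 and 43327 ± 4333 on day 0. The log2 difference of -1.11 ± 0.20 is 2.16-fold lower on day 6, and its error spans the 2-fold line. It came under 2-fold with quantile normalization (-0.87), with no scaling (-0.89) and in the authors' deposited table (-0.87). Its probe (NM_011141) lies at chr4:124103741-124103800 on the plus strand.

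Pou3f2 (Brn2), which acts in neural progenitors and in neurons of the cortex and hypothalamus, was detected on day 6 only. Its intensity was 6525 ± 653 on day 6 and 22.2 on day 0, where the spot was not well above background. Before subtraction the day 0 spot read 146, against a local background of 57.0 and a median of 92.8 over the 153 negative control spots of that array. The difference is at least 54.6-fold higher on day 6, taking the lowest day 0 intensity that was well above background (102) as the day 0 value. The bound ranged between 4.83 log2 units with no background subtraction and 5.995 with no scaling, against 5.77 as given here, and the unbounded reading of the spots was 7.97.

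The probes of Pou3f3 (Brn1), which works alongside Pou3f2 in the cortex, gave unlike values. The upstream probe, whose sequence is printed above, had intensities of 3425 ± 343 in embryoid bodies and 2497 ± 250.8 in ES cells, for a log2 difference of 0.23 ± 0.20. The downstream probe (BC079869, chr1:42939639-42939698, plus strand) starts 1009 bases further along, at 2295 ± 230 on day 6 and 24.7 on day 0. The day 0 spot was at background, which makes the signal of day 6 at least 19.2-fold higher. On the log2 scale this bound is 4.26, and it was 3.20 with no background subtraction and 3.36 with normexp background correction, where the upstream probe stayed at 0.25 in both. The upstream probe was therefore well above background on both days and the downstream one on day 6 only, and their log2 differences were at least 4.03 apart as given here, and less under those settings. No direction or size for Pou3f3 as a gene is given.

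Pou3f4 (Brn4), a gene of the neural tube, inner ear and striatum, was not well above background on either day with either probe. The probe printed above read 94.9 on day 6 and 25.5 on day 0, and before subtraction 196 and 121. The other (AK090196, chrX:106145571-106145630, plus strand) read 17.5 on day 6 and 20.9 on day 0, so no fold is given for this gene.

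Pou2f1, the widely expressed octamer factor that also serves snRNA and histone genes, was within 2-fold with both probes. The probe for NM_011137 (chr1:165846220-165846279, minus strand) had intensities of 22006 ± 2201 in embryoid bodies and 22967 ± 2297 in ES cells, for a log2 difference of -0.29 ± 0.20. The probe in the homeodomain, printed above, had 652 ± 67.5 in embryoid bodies and 770 ± 79.8 in ES cells, for a log2 difference of -0.46 ± 0.21. The 2 differences were 0.18 log2 units apart, less than their combined software error of 0.29.

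Pou4f1 (Brn3a) was detected at low intensity on both days, and its probes pointed in opposite directions. The probe at chr14:98892394-98892453 (NM_011143, minus strand) had 956 ± 97.6 in embryoid bodies and 530 ± 58.2 in ES cells, for a log2 difference of 0.63 ± 0.22. The probe at chr14:98895465-98895524, for the same accession and strand, had 310 ± 36.3 in embryoid bodies and 402 ± 46.6 in ES cells, for a log2 difference of -0.60 ± 0.24. Neither reached 2-fold, but they lay 1.23 log2 units apart, with a combined software error of 0.32. The array thus gives no direction for Pou4f1.

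Pou6f1 had 1 probe above background. The probe for NM_010127 at chr15:100560721-100560780 (minus strand) had intensities of 1490 ± 150 on day 6 and 892 ± 92.4 on day 0. Its log2 difference of 0.52 ± 0.21 is 1.43-fold higher on day 6, under the 2-fold line. The other probe, for the same accession, covers 659 bases of the genome at chr15:100568632-100569290, so its 60 bases are not contiguous there. It read 19.8 on day 6 and 23.5 on day 0 and was not well above background on either.

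**Figure D2:**
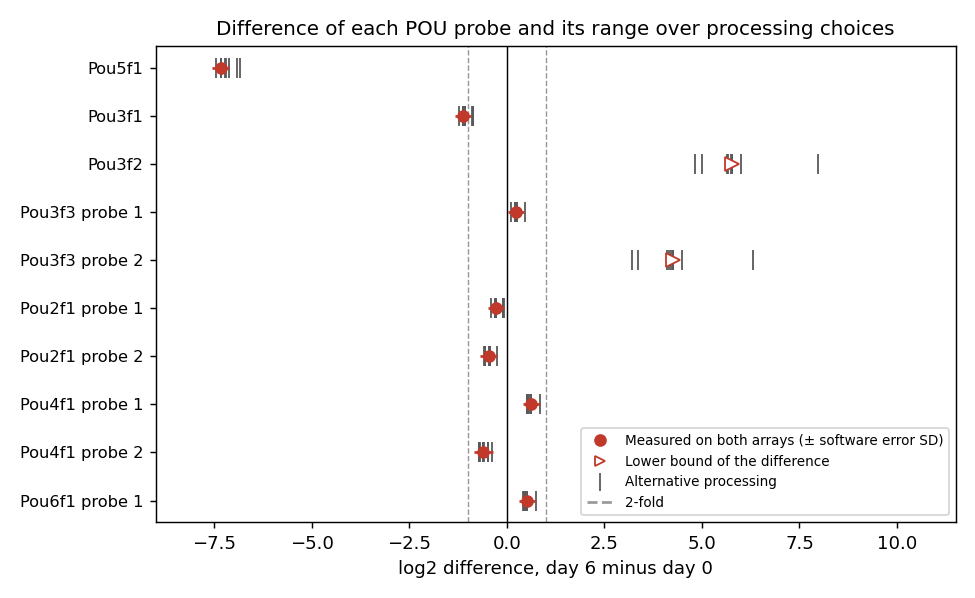
log2 difference (day 6 minus day 0) of the 10 POU probes that could be compared, with the software error SD for probes measured on both arrays, an arrowhead for the lower bounds of Pou3f2 and the downstream Pou3f3 probe, and a tick for each processing alternative. Pou5f1 stays near -7 throughout, while the ticks of Pou3f1 fall on both sides of the 2-fold line.

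Other genes of the POU family were mostly below background. Pou1f1, Pou2f3, the cofactor Pou2af1, Pou4f2 and Pou4f3 were not well above background in either sample. Pou2f2 (Oct2) was barely above background on day 6, at 106, and 33.4 on day 0.

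The array's labelled cell types were checked against their markers. All 8 ES markers were at least 2-fold lower on day 6, and their intensities summed to 10243 on day 6 and 454777 on day 0. Of 7 measured neural precursor markers, 6 were at least 2-fold higher and 0 lower, with summed intensities of 362917 on day 6 and 37930 on day 0. Sox3 was not well above background on either day. Of 8 neuron markers, 7 were at least 2-fold higher, with summed intensities of 241125 on day 6 and 35266 on day 0. Of 8 fibroblast markers, 6 were at least 2-fold lower on day 6 and 0 higher, with summed intensities of 38542 on day 6 and 161763 on day 0, and Lox was not well above background on day 6. The part of feeder RNA in the day 0 signal of the POU probes was not tested, and in bulk RNA fewer cells of a type and less RNA per cell cannot be told apart. Of 5 measured endoderm markers 3 were at least 2-fold higher: Foxa2 (6.71 ± 0.22), Sox17 (1.58 ± 0.23) and Cer1, a bound of 1.51 at an intensity of 341. Foxa2 made up 50104 of their summed day 6 intensity of 52243. Gata6 (-0.13 ± 0.22) and Gata4 (a bound of 0.24) did not reach 2-fold, and Afp was not well above background on either day. Of 5 measured mesoderm markers 1 was higher and 2 lower. The shares over all named genes were 17.5% upward and 20.2% downward at 2-fold. The mesoderm counts are near them.

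Partners and targets of Oct4 were lower on day 6 along with Pou5f1, except Sox2. Of 11 measured genes, 10 were at least 2-fold lower and 0 higher, with a median log2 difference of -6.13. Over all 14202 named genes 20.2% were at least 2-fold lower, 17.5% higher, and the median was -0.10. Nanog, Zfp42, Esrrb, Dppa4, Tdgf1 and Utf1 are also among the ES markers above, so these counts are not separate. Lefty1, a Nodal inhibitor with an Oct-Sox enhancer, had 636 on day 6 and 56877 on day 0 (-6.71 ± 0.21). Esrrb, an orphan nuclear receptor, had 442 on day 6 and 34215 on day 0 (-6.50 ± 0.21). Its other probe, with a day 6 spot at background, gave a bound of -4.02. Sox2, the partner of Oct4 that neural progenitors also express, had 57172 in embryoid bodies and 66002 in ES cells, so its log2 difference was -0.43 ± 0.20.

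Among 8 genes for nuclear receptors and chromatin enzymes known to act on Pou5f1, 2 were at least 2-fold higher (25.0%) and 2 lower (25.0%), with a median of 0.24. These shares are near the 17.5% and 20.2% of all named genes, so the count is no result about the list. Nr5a2 (LRH-1), an activator of Pou5f1 in the epiblast, had 387 on day 6 and 21912 on day 0 (-6.05 ± 0.22). Nr2f2 and Nr2f1, COUP-TF genes that encode repressors of Pou5f1, were higher. Nr2f2 had 22558 on day 6 and 542 on day 0 (5.16 ± 0.21), and its other probe measured on both arrays gave 5.51. A further Nr2f2 probe, with a day 0 spot at background, gave a bound of 2.95. Nr2f1 had 4320 on day 6 and a spot at background on day 0, which bounds it at 36.2-fold higher or more. Nr2f6, another nuclear receptor gene of this list, was within 2-fold (0.73 ± 0.20). Nr6a1 (GCNF), which represses Pou5f1 as ES cells differentiate, had 11913 on day 6 and 5508 on day 0 (0.89 ± 0.20). Dnmt3b, a DNA methyltransferase, was 9.54-fold lower (-3.25 ± 0.20), and Dnmt3a and the histone methyltransferase gene Ehmt2 were within 2-fold by their brightest probes.

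These receptors recognise half-sites in the Pou5f1 promoter, so the 250 bases before its first RefSeq start are shown (RefSeq, GRCm38.p6, chr17:35505782-35506031, plus strand). Capitals mark the half-site AGGTCA and the GC box GGGCGG, both searched on both strands. They do not overlap.
Pou5f1 promoter: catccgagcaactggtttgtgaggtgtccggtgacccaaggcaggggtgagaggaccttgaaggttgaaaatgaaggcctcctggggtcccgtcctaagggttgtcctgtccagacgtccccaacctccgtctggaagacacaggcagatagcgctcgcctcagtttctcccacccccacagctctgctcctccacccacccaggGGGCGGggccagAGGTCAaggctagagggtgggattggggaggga
The half-site begins 33 bases before the start and the GC box 45 bases before it. Of 32851 promoters of this length, 14.0% held at least 1 AGGTCA and 32.7% at least 1 GGGCGG. The CpG content of the Pou5f1 window was 0.33 of that expected from its C and G content, and its GC content was 62.0%.

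Genes of the epiblast, the tissue in which Pou3f1 and Pou5f1 are expressed together, passed 2-fold downward in 5 cases of 7 measured and upward in 2, and their median was -1.98. That median is the bound of Zic5, which had 287 on day 0 and a spot at background on day 6 (46.3). As a share of all named genes, 20.2% were at least 2-fold lower and 17.5% higher. Dnmt3b, 1 of those lower, is also counted above among the genes that act on Pou5f1, so these counts are not separate. Zic2, also lower, was dim on both days, at 245 on day 6 and 443 on day 0. Fgf5, the growth factor that marks the primed state, had 1565 on day 6 and 12635 on day 0 (-3.24 ± 0.20). Foxd3 had 98.0 on day 6, a spot at background, and 2724 on day 0, for a bound of 32.5-fold lower or more. Sall2 was higher, with 24654 on day 6 and 4895 on day 0 (2.11 ± 0.20), as was Otx2 (1.53 ± 0.20). Pou3f1, at -1.11, lay nearer to 0 than the median of this list, which does not contain it.

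Genes that work with class III POU factors in neural cells were mostly higher, as Pou3f2 was. Of 13 measured genes, 11 passed 2-fold upward (84.6%) and 0 downward, with a median of 2.84. That median is the value of Myt1l, which is a lower bound. The shares of all named genes were 17.5% upward and 20.2% downward. Sox1, Pax6, Nes, Hes5 and Fabp7 are also among the neural precursor markers above, so these counts are not separate. Myt1l, a zinc finger gene of neurons, had 856 on day 6 and a spot at background on day 0, which puts its brightest probe at least 7.17-fold up, while its dimmest gave a bound of 0.63 log2 units. Neurog2, a proneural factor, was at least 18.8-fold higher, and Hes5, a Notch effector, was 268-fold higher (8.07 ± 0.22). Fabp7, whose enhancer holds a POU site used in radial glia, was 319-fold higher (8.32 ± 0.23). Nes, whose neural enhancer binds class III POU and Sox factors, had 49114 in embryoid bodies and 33271 in ES cells, so its log2 difference was 0.34 ± 0.20.

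**Figure D3:**
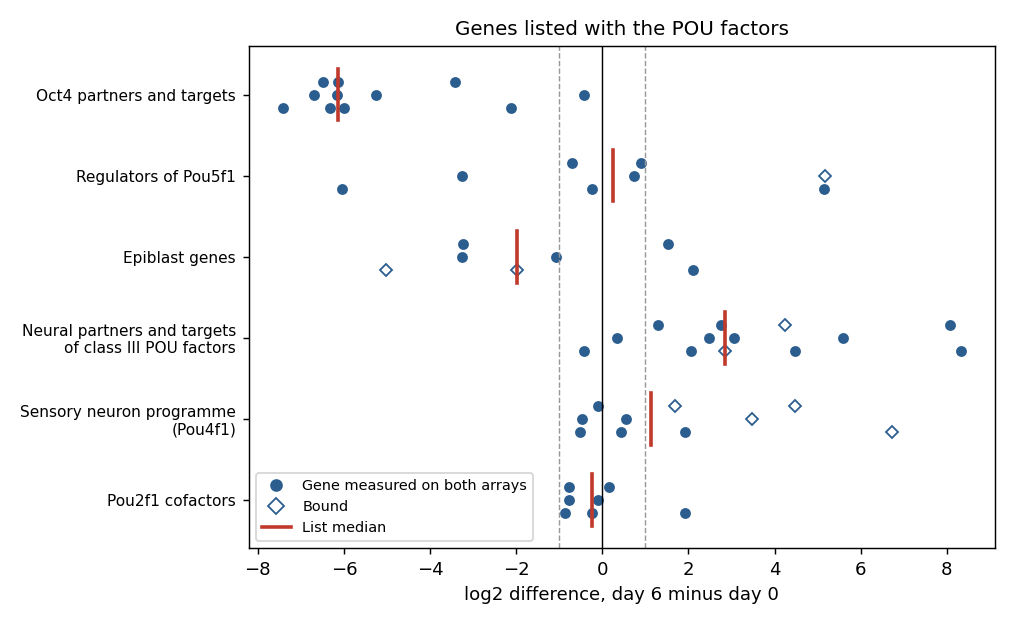
log2 difference (day 6 minus day 0) of the genes listed with each POU factor, 1 point per gene by its brightest probe, diamonds for bounds and a red bar for the list median. The Oct4 list has its median at -6.13 and the neural list of the class III factors at 2.84, while the Pou2f1 cofactors centre at -0.24. The medians of the neural and epiblast lists each fall on a gene that is a bound (Myt1l and Zic5).

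The promoters of the Brn genes Pou3f2, Pou3f3 and Pou3f4 are shown so that the class III genes with an entry can be set beside Pou5f1. CCAAT was searched on both strands after these sequences had been seen, and is in capitals. It does not overlap another searched motif here. The sequences are the 250 bases before the RefSeq start in GRCm38.p6: Pou3f2 at chr4:22488367-22488616 (minus strand), Pou3f3 at chr1:42695518-42695767 (plus strand) and Pou3f4 at chrX:110814129-110814378 (plus strand).
Pou3f2 promoter: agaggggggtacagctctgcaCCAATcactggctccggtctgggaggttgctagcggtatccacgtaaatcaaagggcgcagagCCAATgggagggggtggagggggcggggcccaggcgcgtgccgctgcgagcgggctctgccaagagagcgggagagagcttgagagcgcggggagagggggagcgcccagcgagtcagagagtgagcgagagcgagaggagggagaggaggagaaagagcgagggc
Pou3f3 promoter: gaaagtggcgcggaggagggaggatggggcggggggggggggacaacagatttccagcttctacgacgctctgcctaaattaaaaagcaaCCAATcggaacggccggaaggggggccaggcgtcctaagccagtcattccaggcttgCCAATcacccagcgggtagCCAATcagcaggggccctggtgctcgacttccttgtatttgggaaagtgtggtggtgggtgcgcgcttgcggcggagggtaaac
Pou3f4 promoter: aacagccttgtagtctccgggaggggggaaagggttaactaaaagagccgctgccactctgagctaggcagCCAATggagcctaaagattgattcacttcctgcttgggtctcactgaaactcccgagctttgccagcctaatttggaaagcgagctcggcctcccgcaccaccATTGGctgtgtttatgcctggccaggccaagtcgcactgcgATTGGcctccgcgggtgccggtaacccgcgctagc
Pou3f2 held 2 matches, Pou3f3 held 3 and Pou3f4 held 3, where 10.1% of 32851 promoters held at least 2 and 2.79% at least 3. Because CCAAT was picked after these sequences had been seen, the shares cannot show that it is unusual in them. The Pou5f1 window printed above held 1 match, on the minus strand 12 bases before the start, and 33.9% of all promoters held at least 1. Pou2f1, Pou4f1 and Pou6f1 had 0 matches, and Pou3f1 had no entry. The octamer ATGCAAAT was in none of the windows of the 7 members with an entry, and in 1.60% of all promoters.

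Genes of the sensory neuron programme, in which Pou4f1 acts with Isl1, passed 2-fold upward in 5 cases of 10 measured and downward in 0. Their median was 1.12, and 4 of the 10 entered as bounds. Among all named genes, 17.5% were at least 2-fold higher and 20.2% lower. Isl1 is also counted above as a neuron marker. Ntrk2, a neurotrophin receptor, had 3186 on day 6 and 724 on day 0 (1.91 ± 0.21). Isl1, the LIM homeobox partner, had 12698 on day 6 and a spot at background on day 0, so that it was 106-fold higher or more. The bound was 22.3-fold for Neurod4 and 11.2-fold for Ntrk3. Neurod1 and Runx1 had log2 differences of -0.51 ± 0.21 and -0.46 ± 0.25 by their brightest probes, which the counts use. The other Runx1 probe was dim on both days, at 129 on day 6 and 256 on day 0. It gave -1.21 ± 0.33, past 2-fold lower, so the 0 downward holds for brightest probes only.

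Of 7 measured cofactors of Pou2f1, 1 was at least 2-fold higher (14.3%) and 0 lower, with a median of -0.24. Over all named genes 17.5% were higher and 20.2% lower, and with 7 genes the count is no result about the cofactors. Hcfc2, a relative of the Oct1 cofactor HCF-1, had 2096 on day 6 and 475 on day 0 (1.92 ± 0.21). Snapc4, the SNAPc subunit that binds the Oct1 POU domain, had 15183 on day 6 and 23891 on day 0 (-0.88 ± 0.20). For Hcfc1 the brightest probe gave -0.78 ± 0.20 on the log2 scale and the dimmest -1.84.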

How the data were processed

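RNA of 1 day 6 embryoid body sample and 1 day 0 ES cell sample was read on 1-channel Agilent arrays of design 014868, both on the same slide at different positions, so position and day cannot be told apart. Per the file headers, intensity values were made with Feature Extraction 9.5.3.1, with background subtraction, spatial and multiplicative detrending and surrogate values for spots not above background; the software's well-above-background, saturation and outlier flags (other values) were deposited with them. The authors also deposited a table on a log2 scale whose 2 columns have nearly equal distributions (sorted values at most 0.000469 apart, median 8.53 in both). The sources used here do not say how it was made. Its differences correlated with those of the scanner files at 0.996 over 28376 probes, which settled its base and direction, and it served as an alternative.

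Control spots were left out, as were outlier spots among the gene spots (216 on day 6 and 186 on day 0). Log2 intensities of a probe's spots were averaged, and each array's 75th percentile (4371 on day 6, 3746 on day 0) was subtracted. Probes well above background on day 6 numbered 26894 (65.4%) and on day 0 25244 (61.4%); 5 and 9 were saturated, none of them POU probes. A probe was compared if well above background on at least 1 array. With 1 array only, its fold is a lower bound against the higher of the dim spot's own value and the dimmest reading that the same array still called well above background. Differences at or past 2-fold were counted, with no test. The software error rests on its multiplicative setting of 0.1 and holds no variation between cultures; the number of arrays limits the precision. Other genes were named through RefSeq accessions or current symbols (29610 probes named, 11564 not) and given by their brightest probe. Named genes were the members, Sox2, Nes, up to 3 genes a list with the largest differences in each direction, and the 3 genes nearest to a member at least 4-fold apart on both arrays; others named beside them were chosen after their values were seen, and some genes that the rule names are not reported here. The members and lists were chosen with earlier results of these data known. Promoters come from RefSeq (GRCm38.p6), where 7 of the 8 members matched. The counting step was run on simulated data with changes well past 2-fold and less noise than the software error, which checks the code and not the precision of the calls. Tools were Python 3.11.15, pandas 2.3.3, R 4.3.3 and limma 3.58.1 (normexp, offset 50).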

Additional observations from a re-analysis of the deposited data

How the results depend on the processing

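No paired analysis was possible because each day had 1 array, and for the same reason no replicate could be left out. The log2 differences of the 10 compared POU probes were recomputed in 98 combinations of probe and alternative: 0 changed direction among those at least 2-fold apart, and 13 moved by more than their software error. Many combinations could not move: changing the filter or the bounds leaves a probe measured on both arrays as it is. A bound cannot pass 0. The error of the bound probes was wide, at 1.41 for Pou3f2 and 1.44 for Pou3f3. Their falls to 4.83 and 3.20 with no background subtraction were therefore not counted as moved. Pou5f1 ranged between -7.45 and -6.84. The count of POU probes at least 2-fold higher was 0 with the filter on both arrays, by construction since both were bounds, and 1 when genes were counted by their brightest probe. The count at least 2-fold lower was 1 with quantile normalization, 1 with no scaling, 1 in the authors' deposited table and 1 at 4-fold, since Pou3f1 lay near the 2-fold line. Over all probes, 4-fold counting gave 1854 higher and 1885 lower, and counting genes gave 2481 higher and 2862 lower, against 4977 and 5141. With no scaling the median of all probes was 0.15 and with median scaling -0.14, and with no filter on dim probes -0.31, against -0.03. Signal over background limits Pou3f2, Pou3f4, the downstream Pou3f3 probe and the probe of Pou6f1 that was dim on both days.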
